A study of Saccharomyces cerevisiae with 2 samples.

Results

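SIR1, SIR2, SIR3 and SIR4, the silent information regulator genes of Saccharomyces cerevisiae, were taken from the array by their ORF names YKR101W, YDL042C, YLR442C and YDR227W, which are 4 of 6207 open reading frames (ORFs) on it. SIR2, SIR3 and SIR4 had a value on both arrays, and SIR1 had none on either. The set was chosen with these ratios known, because SIR4 stood high while its partners did not, so the ratios of the members are a description and carry no test. Total RNA was compared on 2 two-colour DNA microarrays between a treated and an untreated culture, both of a sho1 mutant in the BY4741 background, a haploid laboratory strain of mating type a. Sho1 is a membrane sensor of the high-osmolarity glycerol pathway, and both cultures lack it, as the labels give the same mutant for both channels. The treated culture grew for 3 hours at 24 °C with Zymolyase, a mix of enzymes that breaks down cell wall glucan, at 0.8 units per ml, and the untreated culture was the other part of the same divided culture, kept at the same temperature without the enzyme. The treated RNA carried Cy3 on array 1 and Cy5 on array 2, and no label gives a clone number for the strain. SHO1 itself had no value on either array, so the ratios do not check the mutation. A free-text note on the untreated channel of array 2 reads hog1 mutant in place of sho1. HOG1 had a deposited log2 ratio of -0.20 on array 1 and 0.04 on array 2, and the strain of that channel was not tested.

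Sir proteins form the silent chromatin of budding yeast, which keeps the spare mating-type cassettes HML and HMR and the genes near telomeres off. Sir1 helps to establish silencing at the silencers of HML and HMR, where it binds the origin recognition complex. Sir2 is a histone deacetylase that uses NAD and removes acetyl groups from the tails of histones H3 and H4, to which Sir3 then binds. Sir4 is the scaffold that joins Sir2 and Sir3 and contacts Rap1, Sir1 and the Ku proteins. Sir2 also acts without Sir3 and Sir4 in the nucleolus, where it is part of a complex that silences the ribosomal DNA. In a cell of mating type a, loss of silencing at HML lets the alpha genes be expressed, and the cell then loses its mating ability.

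The deposited values are log2 ratios, and their direction is not stated. They were read as treated over untreated on both arrays, so that a value above 0 would mean more transcript in treated cells. Both records carry a title that names the exposure to the enzyme, but a title does not give the ratio direction. Array 1 held 5552 ORFs with a value and array 2 held 5347, with 5311 on both. The arrays' medians were -0.03 and -0.02, and the middle 95% of the 5311 mean ratios ran from -0.23 to 0.28. Whether a separate culture stood behind each array is not labelled, so the spread between arrays may be technical. Spot intensities were not used here, so the number of arrays limits the precision and the level of each transcript is unknown.

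SIR4 stood far above its partners on both arrays. SIR4, the scaffold gene, had a log2 ratio of 1.07 on array 1 and 1.67 on array 2, which is 2.10-fold and 3.19-fold. Its mean was 1.37 ± 0.43 (SD, n = 2 arrays), a 2.59-fold ratio. It ranked 12 among 5552 ORFs on array 1, 6 among 5347 on array 2 and 7 among 5311 in the mean. The arrays agreed on its sign and place but less on its size: its values lay 0.60 apart, at percentile 95.2 of that distance over all ORFs, and its SD of 0.43 compares with a median SD of 0.12.

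SIR3, whose protein spreads along deacetylated histone tails, had 0.08 on array 1 and 0.17 on array 2. Its mean was 0.12 ± 0.06 (SD, n = 2 arrays), or 1.09-fold, with a moderated standard error of 0.13 in limma. SIR3 was therefore near 0 on both arrays, on the same side as SIR4. It lay at percentile 72.7 of all ORFs on array 1, 89.7 on array 2 and 91.6 in the mean. SIR2, the deacetylase gene, had -0.06 on array 1 and 0.04 on array 2, so its sign differed between the arrays. Its mean was -0.01 ± 0.07 (SD, n = 2 arrays), or 0.993-fold, with the same moderated standard error of 0.13, and lay at percentile 57.5. SIR1, the gene of the establishment factor, was 1 of 619 ORFs without a value on either array, and nothing can be said of its transcript.

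**Figure D1:**
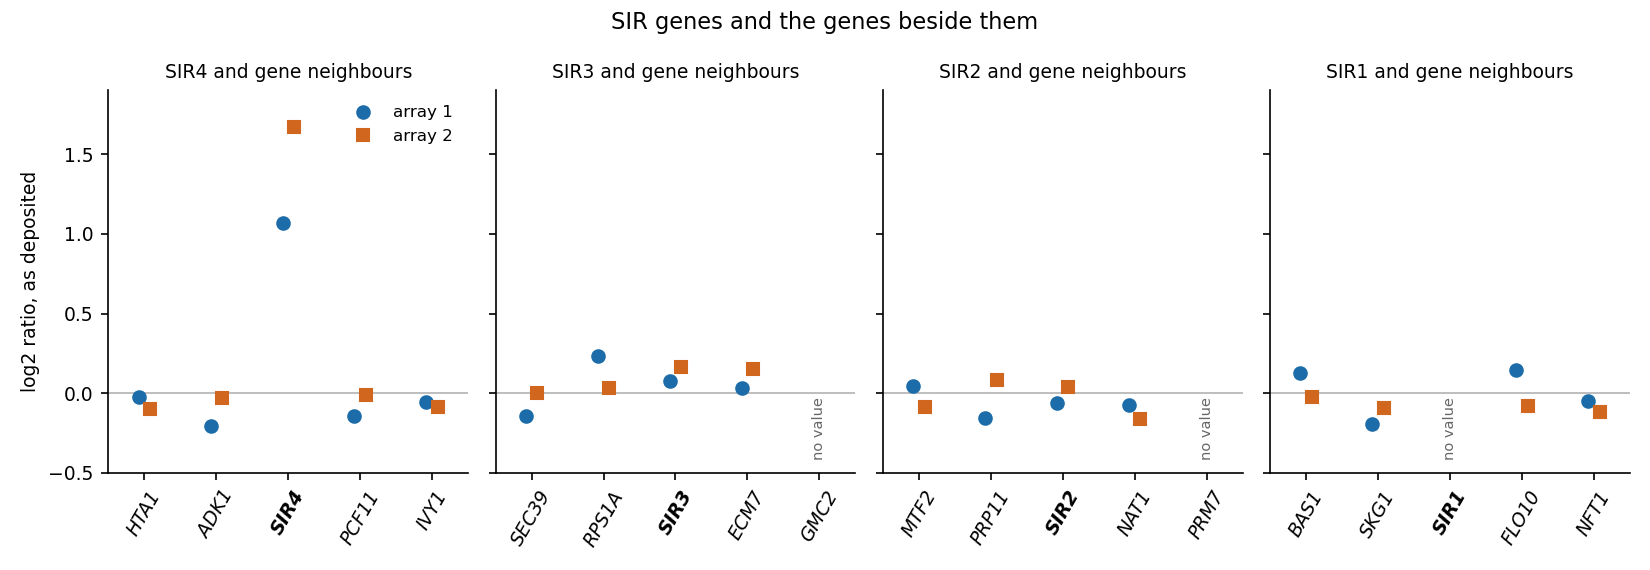
Deposited log2 ratios (vertical axis) of SIR4, SIR3, SIR2 and SIR1 (bold) with the annotated genes in the 2 places on each side, for array 1 (circles) and array 2 (squares). SIR4 lies at 1.07 and 1.67 while its neighbours, SIR3 and SIR2 lie near 0, and SIR1, GMC2 and PRM7 have no value under their own ORF names.

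The order of the measured members was SIR4, SIR3, SIR2 on both arrays. SIR4 exceeded the mean of SIR2 and SIR3 by 1.06 on array 1 and 1.57 on array 2, a mean difference of 1.32 ± 0.36 (SD, n = 2 arrays) on the log2 scale, or 2.49-fold. Taken singly, SIR4 exceeded SIR2 by 1.38 ± 0.36 and SIR3 by 1.25 ± 0.37 (SD, n = 2 arrays each). SIR3 exceeded SIR2 by 0.14 on array 1 and 0.13 on array 2. That distance was alike on the arrays (SD 0.0098) but only about as large as the moderated standard error of either gene, 0.13, so the order of SIR3 and SIR2 is not settled beyond this error. Because the SIR genes were picked for this contrast within the set, no p-value is attached to it.

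The size of the SIR4 ratio depended on the reading of the columns. If both columns were ratios of Cy5 over Cy3, array 1 would have to be turned, since treated RNA carried Cy3 there. SIR4 would then have opposite signs on the arrays, and so would its excess over SIR2 and SIR3. The mean of SIR4 would be 0.30, at rank 74 of 5311 and percentile 98.6, and its mean excess would be 0.26. SIR3 and SIR2 would have means of 0.04 and 0.05. In that reading the mean of the deposited SIR4 values, 1.37, would not measure the treatment. Which reading holds cannot be told apart from 2 arrays whose ratio direction is unstated.

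A value as high as that of SIR4 on both arrays was rare. Ratios of at least 2-fold on both arrays were found for 13 of 5311 ORFs, or 0.245%, and SIR4 was 1 of these. In limma's moderated test over all ORFs with Benjamini-Hochberg adjustment, 41 ORFs passed an adjusted p of 0.05 as higher, or 0.772% of those tested, and 0 passed as lower, where 59 had an unadjusted p under 0.05. SIR4 was among the 41, and SIR2 and SIR3 were not. Since SIR4 was chosen from this contrast, its place among these ORFs is no further evidence. Values above 0 on both arrays, as SIR4 and SIR3 had them, were found for 14% of ORFs, opposite signs, as SIR2 had them, for 59.3%, and values below 0 on both arrays, as no SIR gene had them, for 26.8%.

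The ORFs with ratios most like those of SIR4 came from other functions. Likeness was measured as the distance between the pairs of log2 ratios over 2 arrays. BPH1, which encodes a BEACH domain protein, was nearest at a distance of 0.07, with 1.14 on array 1 and 1.67 on array 2. OAF1, the gene of an oleate-activated transcription factor, followed at 0.26, with 1.33 and 1.68. TOF1, whose protein protects paused replication forks, lay at 0.28, with 0.96 and 1.42. IDP2, the cytosolic NADP-dependent isocitrate dehydrogenase gene, lay at 0.30, with 1.10 and 1.38, and the short ORF YGL088W also at 0.30, with 1.32 and 1.83. All 5 were higher on array 2 than on array 1, as SIR4 was, which follows from choosing them by nearness to SIR4. With only 2 arrays, such likeness describes a pair of values and no pattern across conditions.

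**Figure D2:**
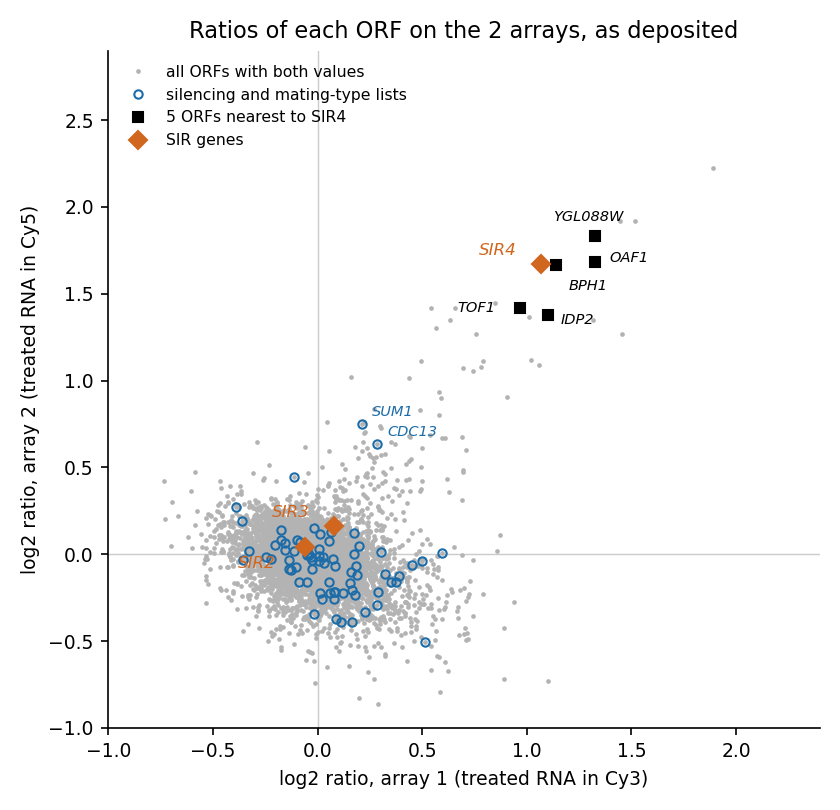
Deposited log2 ratios of all 5311 ORFs on array 1 (horizontal axis) and array 2 (vertical axis), with the SIR genes (diamonds), the 5 ORFs nearest to SIR4 (squares) and the genes of the silencing and mating-type lists (open circles). SIR4 lies with the 5 nearest ORFs at the upper right, whereas SIR2 and SIR3 lie inside the main cloud.

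The genes beside SIR4 on its chromosome did not share its ratio. ADK1, the adenylate kinase gene on one side, had -0.21 on array 1 and -0.03 on array 2. PCF11, the gene of a cleavage and polyadenylation factor on the other side, had -0.14 and -0.01. One place further out, the histone H2A gene HTA1 and the gene IVY1 had means of -0.06 and -0.07. All 4 neighbours of SIR4 were below 0 on both arrays, as 26.8% of all ORFs were, while SIR4 was the only one of the 5 above it.

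The neighbours of the other SIR genes also had small ratios. Beside SIR3, the ribosomal protein gene RPS1A had 0.24 on array 1 and 0.03 on array 2, and ECM7 had 0.03 and 0.15. Beside SIR2, the splicing factor gene PRP11 had -0.16 and 0.08, and NAT1, a subunit gene of the N-terminal acetyltransferase NatA, had -0.07 and -0.17. SIR1 lies nearest to a chromosome end among the SIR genes, as the protein gene in place 6 from it. Its neighbours there were measured: SKG1 had -0.19 and -0.09, and FLO10, a flocculin gene, had 0.15 and -0.08. Of the 16 neighbours of the SIR genes, 14 had both values, and their means ran from -0.14 to 0.14. None of the 14 passed the test, against 0.772% of all ORFs.

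SIR4 is also the longest gene of the set, and the called protein genes of these arrays were longer in the median than those tested. Its coding length is 4077 bp in the RefSeq R64 annotation, against 2937 bp for SIR3, 1689 bp for SIR2 and 1965 bp for SIR1. The 39 called protein genes had a median coding length of 2280 bp, against 1254 bp for the 5011 tested protein genes. The share called was 0.378% up to 1000 bp, 0.5% above that and up to 2000 bp, 1.25% up to 3000 bp, 2.63% up to 4000 bp, 2.08% up to 6000 bp and 10.3% of the 29 genes over 6000 bp. Over all 5011 genes, the mean ratio and log2 length had a Pearson r of 0.058. The part of length in the SIR4 ratio was not tested. The 112 other genes within 10% of its length had a median of -0.01 in the mean of both arrays, with 0.05 on array 1 and -0.01 on array 2. Of these 3 were called, and none reached SIR4. The highest of them was TUS1, an exchange factor gene for the GTPase Rho1, with a mean of 1.33.

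SIR4 was 1.35 above the median of these 112 genes. SIR3 was 0.13 above the median of 258 genes of like length, of which 38 were at or above it. SIR2 was 0.02 above the median of 579 such genes, of which 221 were at or above it.

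**Figure D3:**
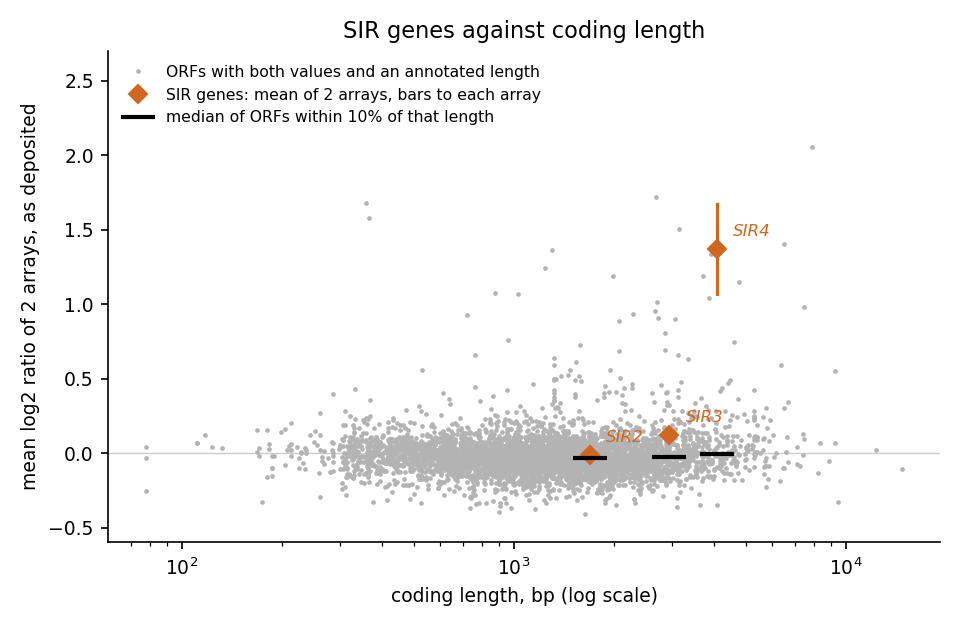
Mean log2 ratio of 2 arrays (vertical axis) against coding length in bp on a log scale, for 5011 protein genes (grey) and the SIR genes (diamonds, with bars running to the value of each array). Black dashes mark the medians of genes within 10% of the length of each SIR gene; SIR4 stands 1.35 above its median, and SIR3 and SIR2 stand 0.13 and 0.02 above theirs.

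None of the listed genes that work with the Sir proteins, or answer to silencing, passed the test, a share close to that of all ORFs. Apart from subtelomeric genes, 9 lists held 85 genes, of which 74 had both values; 0 passed limma's test as higher and 0 as lower, against 0.772% and 0% of all ORFs. Their median mean ratio was -0.02, against -0.03 for all ORFs tested. In the values as deposited none of the 74 reached SIR4; the highest was SUM1 at 0.48 and the lowest TBF1 at -0.20. This order did not hold with array 1 turned, where MF(ALPHA)2 at 0.33 lay above SIR4 at 0.30 and SUM1 at 0.27, EST1 was lowest at -0.51 and TBF1 had 0.16. In limma's test, an unadjusted p under 0.05 was found for 2 telomere factors, 1 histone modifier or assembly factor and 0 genes of the other 7 lists. Over all ORFs it was found for 191 of 5311.

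The paralogues of the members did not follow SIR4. The 4 Sir2 homologues, HST1 to HST4, had a median of -0.05 with 2 below 0 on both arrays and 2 of opposite sign. Over all ORFs these shares were 26.8% and 59.3%. HST1, the closest homologue of SIR2 and the deacetylase of the Sum1 complex, had -0.22 on array 1 and -0.03 on array 2, a mean of -0.13 ± 0.14 (SD, n = 2 arrays). HST3, which acts on acetylated histone H3, had -0.05 and -0.01. SIR2 and HST1 are similar in sequence, so a spot of one may take up cDNA of the other, and here both had small values. ORC1, the paralogue of SIR3 and a subunit of the origin recognition complex, had -0.02 and -0.34, a mean of -0.18 ± 0.23 (SD, n = 2 arrays).

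Factors that bind silencers mostly had opposite signs on the arrays, as 59.3% of all ORFs had. The silencer-binding list, RAP1, ABF1 and the origin recognition complex genes, had 7 of 8 genes with both values. Their median was -0.05 in the mean of both arrays, -0.02 on array 1 alone, -0.24 on array 2 alone and -0.16 with array 1 turned. RAP1, whose protein recruits Sir3 and Sir4 to silencers and telomeres, had -0.03 and -0.08. ABF1, the other silencer-binding factor, had 0.16 and -0.39. Of the 7 genes, 2 were below 0 on both arrays and 5 had opposite signs, while none was above 0 on both. Over all ORFs these shares were 26.8%, 59.3% and 14%. Whether the list differs from all ORFs was not tested.

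Among telomere factors 9 of 13 genes had both values, with a median of 0.00448. CDC13, which encodes a protein bound to single-stranded telomeric DNA, had 0.28 on array 1 and 0.64 on array 2. Its mean was 0.46 ± 0.25 (SD, n = 2 arrays; limma adjusted p = 0.205). Its telomere-capping partners did not share these values: STN1 had 0.02 and -0.26, and TEN1 had -0.03 and -0.04. RIF1, which binds Rap1 at telomeres in competition with Sir4, had 0.59 on array 1 and 0.01 on array 2 (limma adjusted p = 1.00). TBF1, a factor of subtelomeric repeats, had -0.36 and -0.04. YKU80, a Ku subunit gene whose product helps to bring Sir4 to telomeres, had -0.11 and 0.44, and its partner YKU70 had a value of 0.12 on array 1 alone. ESC1, which anchors Sir4 at the nuclear envelope, had -0.09 and 0.07.

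Histone modifiers and chromatin assembly factors of silencing gave 24 of 25 genes with both values and a median of -0.03. On array 1 their median was 0.08 and on array 2 it was -0.09, and 21 of the 24 had opposite signs, against 59.3% of all ORFs. SUM1, a repressor of midsporulation genes known for a mutant form that restores silencing without Sir proteins, had 0.21 and 0.75. Its mean was 0.48 ± 0.38 (SD, n = 2 arrays; limma adjusted p = 0.205). RFM1, the gene of the factor that links Sum1 to Hst1, had 0.06 and -0.22. SET1, the histone H3 lysine 4 methyltransferase gene, had 0.17 and 0.12. DOT1, whose methyl mark on histone H3 limits Sir3 binding, had 0.12 and -0.22, and SAS2, the acetyltransferase gene that opposes Sir spreading, had -0.16 and 0.06. DPB3, a small subunit gene of DNA polymerase epsilon, had 0.0049 and 0.03. SUM1, SET1 and DPB3 were the 3 genes of this list above 0 on both arrays, and none was below 0 on both. Over all ORFs these shares were 14% and 26.8%.

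The ribosomal DNA branch of Sir2 had a median of -0.09 as deposited over 7 genes, against -0.03 for all ORFs. Of these 7 genes, 4 were below 0 on both arrays and none above, against 26.8% and 14% of all ORFs. Whether the list differs from all ORFs was not tested. This median was the lowest of the 10 lists, just under -0.08 for alpha-specific genes, but not the lowest on either array alone. NET1, the nucleolar anchor of Sir2, had -0.14 on array 1 and -0.08 on array 2. CDC14, the phosphatase gene held by the same complex, had -0.14 and -0.03. HMO1, a high-mobility-group protein gene, had -0.10 and -0.07. FOB1, the replication fork barrier gene, had 0.16 and -0.10. With array 1 turned this list's median was 0.02.

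**Figure D4:**
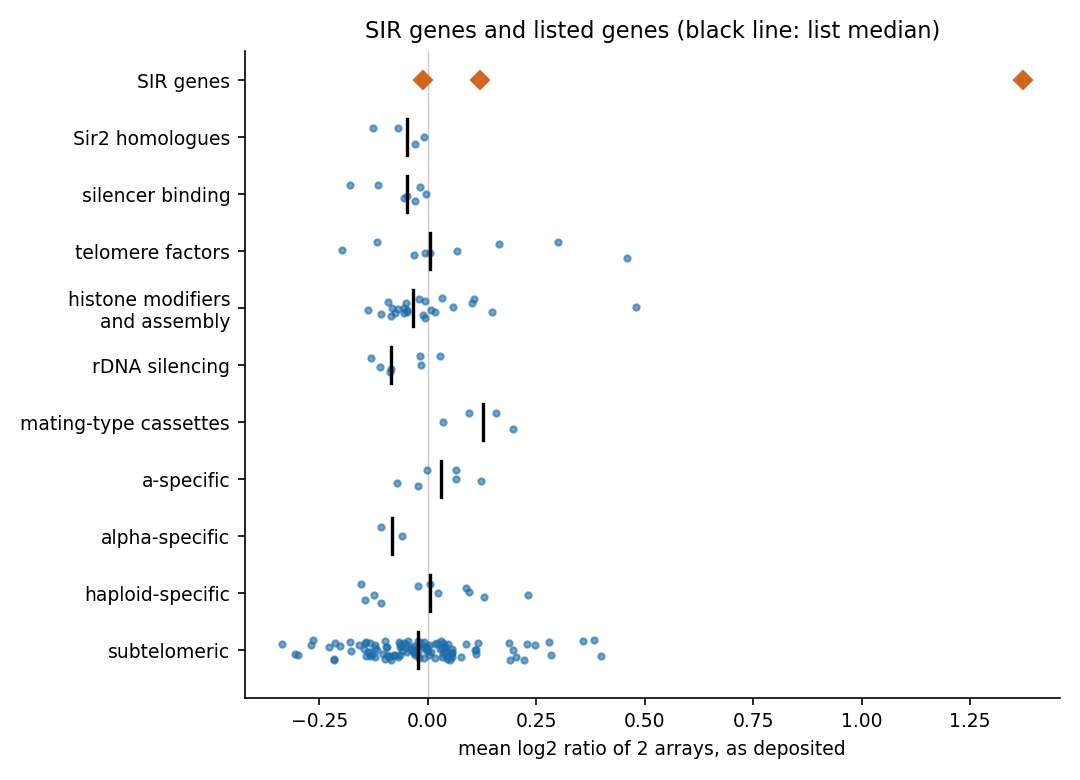
Mean log2 ratio of 2 arrays (horizontal axis) for SIR4, SIR3 and SIR2 (diamonds, top row) and for each gene of the listed groups (points), with a black line at the list median. In these values, as deposited, SIR4 at 1.37 lies beyond every plotted gene, of which the highest is SUM1 at 0.48; with array 1 turned, which is not plotted, MF(ALPHA)2 at 0.33 lies above SIR4 at 0.30.

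The cassettes that Sir proteins silence had higher values on array 1 than on array 2, with opposite signs for 3 of 4 measured genes, against 59.3% of all ORFs. Of 6 cassette genes 4 had both values, and their median was 0.13, with 0.33 on array 1 and -0.11 on array 2. HMLALPHA2, the alpha2 repressor gene at HML, had 0.29 on array 1 and -0.22 on array 2. MATALPHA2 had 0.30 and 0.01; it is a copy of the same sequence, and in a strain of mating type a only HML holds a whole alpha2 gene, though the a2 gene shares its end. HMRA2 and HMRA1, at the silent HMR locus, had 0.45 and -0.06, and 0.35 and -0.16. HMRA1 was read from the row YCR097WB, and the row YCR097WA of the same ORF number had 0.17 and -0.12. The a cassette is copied at HMR and at the mating-type locus, so the HMR spots cannot tell the silent from the active copy. None of the 4 passed the test, which 0.772% of all ORFs passed. With array 1 turned, the list's median was -0.25, against 0.0059 for all ORFs.

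Genes that report the mating type of the cells had no member past the test, which 0.772% of all ORFs passed. With so few genes measured, that count is close to the share of all ORFs. The a-specific list, which the alpha2 repressor turns off, had 6 of 7 genes with both values and a median of 0.03. MFA1 and MFA2, the a-factor genes, had 0.05 and 0.08, and 0.20 and 0.05, on arrays 1 and 2. STE2, the alpha-factor receptor gene, had 0.0060 and -0.01, and AGA2, the a-agglutinin gene, had -0.03 and -0.02. STE6, the a-factor exporter gene, had 0.08 and -0.22. The alpha-specific list had 2 of 4 genes with both values and a median of -0.08, which was -0.22 on array 1, 0.05 on array 2 and 0.14 with array 1 turned. The alpha-agglutinin gene SAG1 had -0.05 and -0.16, and MF(ALPHA)2, an alpha-factor gene, had -0.39 and 0.27. STE3 and MF(ALPHA)1 had no value on either array. A ratio does not give the level of a transcript, so these lists do not check the mating type of the strain.

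Haploid-specific genes, which the joint a1 and alpha2 repressor turns off, all had both values, with a median of 0.0057 over 11 genes, which was 0.06 on array 1, -0.02 on array 2 and -0.03 with array 1 turned. STE4 and STE12, a G protein subunit gene and the transcription factor gene of the mating pathway, had -0.13 and -0.09, and -0.09 and -0.16. NEJ1, an end-joining factor gene, had 0.06 and 0.13. STE18 and GPA1, the other G protein subunit genes, had 0.50 and -0.04, and 0.39 and -0.13. In this list 2 genes were above 0 on both arrays, 3 below and 6 of opposite sign. This split is close to the 14%, 26.8% and 59.3% of all ORFs.

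Subtelomeric genes, taken as the 5 outermost annotated protein genes at each chromosome end, had both values for 111 of 160 genes. Their median was -0.02, against -0.03 for all ORFs. Of the 111, 22 were above 0 on both arrays and 23 below, against 14% and 26.8% of all ORFs. In limma's test 0 passed, against 0.772% of all ORFs. An unadjusted p under 0.05 was found for 8 of the 111, against 191 of all 5311 ORFs. Whether the list differs from all ORFs was not tested. YPR202W had 0.40 on array 1 and 0.37 on array 2 (limma adjusted p = 0.429), YEL075C had 0.31 and 0.41 (limma adjusted p = 0.612), and YAR068W had -0.28 and -0.33 (limma adjusted p = 1.00). Many of these genes belong to families of near-identical copies, so a spot can report several of them. With the 10 outermost genes at each end, 222 had both values and 2 were called, LRG1 and YAT1, where 0.772% of all ORFs were called.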

How the data were processed

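Each array came as a column of log2 ratios that the authors deposited, a unit inferred from the numbers. The sources used here give no scanner, background correction, normalization or ratio direction. The labels' design text speaks of 4 arrays per condition; 2 were analysed. Values were used as deposited. Control rows (2) were left out. Of 6207 ORF names, 5654 equalled a locus tag of RefSeq R64, 21 matched as a synonym and 532 went unmatched. The array's build is unnamed, so coordinates were left out.

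For each ORF, limma 3.58.1 (R 4.3.3) tested the mean ratio against 0 (lmFit, eBayes, two-sided, Benjamini-Hochberg over 5311 ORFs with both values), and the fit was tested on simulated data. It has 1 residual degree of freedom per ORF. Python 3.11.15, pandas 2.3.3, numpy 2.4.6 and matplotlib 3.10.9 were used for tables and plots. Members and lists were chosen with earlier results of these data known. Named genes are the members, their neighbours and paralogues, the 5 ORFs nearest to SIR4, and up to 3 genes per list whose arrays share a sign and whose smaller absolute value is largest; other listed genes were named after their values were seen. Alternatives were a turned array 1, centring, scaling, single arrays, robust variances, ORFs with 1 value, a stricter threshold and a wider subtelomeric rule.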

Additional observations from a re-analysis of the deposited data

How the results depend on the processing

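With array 1 turned, 0 ORFs passed the test (499 at an unadjusted p under 0.05), the mean of SIR4 was 0.30 and of SIR3 0.043, and SIR4 exceeded its measured partners by 0.26. The medians of the 10 lists in that reading were 0.090 for Sir2 homologues, -0.16 for silencer-binding genes, 0.079 for telomere factors, -0.11 for histone modifiers and assembly factors, 0.016 for ribosomal DNA silencing, -0.25 for mating-type cassettes, -0.00023 for a-specific genes, 0.14 for alpha-specific genes, -0.034 for haploid-specific genes and 0.0098 for subtelomeric genes. With each array centred on its median, the medians were 0.030 for telomere factors, -0.060 for ribosomal DNA silencing, 0.057 for a-specific genes and 0.0020 for subtelomeric genes. On single arrays SIR4 ranged from 1.07 to 1.67, SIR3 from 0.08 to 0.17, SIR2 from -0.06 to 0.04 and the excess of SIR4 from 1.06 to 1.57. Also on single arrays, the median of Sir2 homologues ranged from -0.13 to 0.0079, that of histone modifiers and assembly factors from -0.091 to 0.080, that of ribosomal DNA silencing from -0.10 to -0.072, that of cassettes from -0.11 to 0.33, that of alpha-specific genes from -0.22 to 0.055 and that of haploid-specific genes from -0.025 to 0.063. The silencer-binding median ranged from -0.24 to -0.017, that of telomere factors from -0.019 to 0.0069, that of a-specific genes from 0.019 to 0.032 and that of subtelomeric genes from -0.0093 to 0.0055. With 10 outermost genes per chromosome end 2 of 222 were called in place of 0, where 0.772% of all ORFs were called. The cause of these differences was not tested. Under the other fits the count past the test was 54 after centring (where limma's prior degrees of freedom were infinite), 41 after scaling, 40 with robust variances, 45 with ORFs of at least 1 value and 35 at an adjusted p of 0.01. Subtracting the median of genes of like length, added after the data were seen, left SIR4 at 1.35. SIR1 has no value, so the partners are SIR2 and SIR3 in every setting. A single array gives no count of called ORFs.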

Other observations

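Several genes of telomere biology and silencing had values of opposite sign on the arrays, which the mean hides. Opposite signs were found for 59.3% of all ORFs, so they are not particular to these genes. EST1, a regulatory subunit gene of telomerase, had 0.52 on array 1 and -0.51 on array 2, so its mean was 0.00448 ± 0.72 (SD, n = 2 arrays). ORC2, a subunit gene of the origin recognition complex, had 0.28 and -0.29. HTZ1, the gene of histone variant H2A.Z that borders silent chromatin, had 0.23 and -0.33. CAC2, a subunit gene of chromatin assembly factor I, went the other way with -0.36 and 0.19. These genes were chosen after their values were seen. None passed the test in either reading of the columns, which carries no information. Values of opposite sign leave a mean near 0 as deposited, and with array 1 turned 0 of 5311 ORFs passed.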
